A study of Mus musculus with 54 samples.

Results

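The 36 genes described here encode the machinery that copies DNA, from the proteins that mark a replication origin to the ligase that joins the new strands. They were chosen by name, from textbook knowledge of replication, but with earlier results of these data known. They were taken out of 17804 genes in the 9-week table, 19409 in the P28 table and 19209 in the P5 table. The P28 and P5 tables held all 36, and the 9-week table held 35, so that Orc1 was not analysed at 9 weeks. Whole mouse cerebellum was sequenced as bulk RNA. At P5 the groups were Rnaseh2b/Atm (4 libraries), Rnaseh2b/p53 (4), Rnaseh2b (3), Atm (3), p53 (3) and control (3), from total RNA. At P28 they were Rnaseh2b/Atm, Rnaseh2b, Atm and control (5 each), from poly-A selected RNA. At 9 weeks they were Rnaseh2b and control (7 each), from total RNA. In every mutant group the labels give the genes followed by Nes-cre, a Cre recombinase driven by the nestin promoter, which is active in neural progenitors, so recombination is aimed at the neural lineage and not at microglia or vessels. The labels do not say whether controls carried Cre, nor whether each replicate was an animal of its own. The spread behind every p-value is therefore that between libraries, which may be technical.

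Rnaseh2b is a subunit of RNase H2, the enzyme that removes ribonucleotides left in newly copied DNA. Atm is a kinase that responds to broken DNA, and Trp53 encodes p53. Before a cell copies its DNA, the origin recognition complex, Cdc6 and Cdt1 load the Mcm2 to Mcm7 helicase onto origins. Cdc45 and the GINS proteins then turn the helicase on, primase and the polymerases alpha, delta and epsilon build the strands, and Pcna, a ring loaded by replication factor C, holds the polymerases on the template. In the cerebellum these genes are known for their activity in granule cell progenitors, which divide in the outer layer during the first weeks after birth. Transcription of many of them is known to depend on E2F factors.

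An E2F motif is a sequence feature that many members share. Promoters are shown for the first 6 members, by role, with a match wholly before the start. Of these, Mcm5, Mcm7 and Pola1 fell and Mcm6 rose in P28 Rnaseh2b/Atm against control, where 63.6% of all genes were called. The 8-letter E2F motifs TTTCCCGC, TTTCGCGC, TTTGCCGC and TTTGGCGC were searched on both strands, from 250 bases before to 50 bases after the start of transcription in RefSeq (build GRCm38.p6). Of the 29 members with a promoter in that table, 14 held a motif (48.3%), counting a gene once whichever of its promoters held it, against 704 of all 27025 genes with a promoter (2.6%). Counted by promoter, the share over all 32851 was 2.26%. By role the count was 7 of 9 for origin licensing, 4 of 7 for polymerases and primase, 1 of 5 for the clamp and its loader, 0 of 2 for helicase activation and 0 of 3 for single-strand binding. A match is a run of letters and not a measured site. Windows of up to 52 bases are written 5′ to 3′ on the strand of the gene, with the motif in capitals, on whichever strand it reads. The capitals of Mcm5 are 2 matches that overlap, 1 on each strand. Orc1 lies at chr4:108579405-108579453 (plus strand), Cdc6 at chr11:98907991-98908042 (plus), Mcm5 at chr8:75109338-75109389 (plus), Mcm6 at chr1:128359723-128359774 (minus), Mcm7 at chr5:138172019-138172070 (minus) and Pola1 at chrX:93632264-93632315 (minus).
Orc1: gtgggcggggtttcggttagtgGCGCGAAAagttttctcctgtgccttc
Cdc6: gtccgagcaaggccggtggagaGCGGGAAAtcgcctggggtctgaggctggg
Mcm5: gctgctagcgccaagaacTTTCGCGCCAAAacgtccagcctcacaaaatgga
Mcm6: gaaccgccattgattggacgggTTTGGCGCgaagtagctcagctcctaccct
Mcm7: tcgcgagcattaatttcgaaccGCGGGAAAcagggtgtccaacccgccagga
Pola1: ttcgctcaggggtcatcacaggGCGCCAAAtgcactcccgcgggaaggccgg

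Control cerebellum gave the level of each gene at each age, in FPKM, a count scaled to gene length and to library size. At P5 the mean over the 3 controls ran over the 36 members between 0.738 FPKM (Orc1) and 42.5 FPKM (Pcna), with a median of 10.1. At P28 the means of the 5 controls ran between 0.113 FPKM (Mcm10) and 18.6 FPKM (Rfc2), with a median of 3.05. At 9 weeks the means of the 7 controls ran between 0.108 FPKM (Cdc6) and 12.9 FPKM (Rpa1), with a median of 2.66 over 35 members. In 31 of 36 members every P28 control lay below every P5 control, and the P28 mean was 1.61% to 583% of the P5 mean (median 30%). Uhrf1, which guides maintenance methylation to freshly copied DNA, had 19.15 ± 9.97 FPKM at P5 (SD, n = 3), 0.31 ± 0.06 at P28 (n = 5) and 0.12 ± 0.03 at 9 weeks (n = 7). Mcm6, a helicase subunit, had 25.78 ± 10.58, 1.02 ± 0.11 and 1.33 ± 0.19 FPKM at the same ages. Rpa1, which coats single-stranded DNA in replication and in repair, had means close to each other at the 3 ages, at 14.08 ± 3.47, 12.48 ± 0.47 and 12.94 ± 0.88 FPKM. Gins2, a GINS subunit, was the one member above every P5 control at P28, with 2.02 ± 0.77, 11.79 ± 0.90 and 0.18 ± 0.05 FPKM. By exon annotation it overlaps Gse1 on the other strand over 2758 bases, and whether reads were counted by strand is not given in the sources used here, so its reads at P28 cannot be told from those of Gse1. The tables were normalised separately, the 9-week FPKM values had been shifted before deposit and P28 came from another kind of RNA, so the ages were set side by side and not tested.

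**Figure D1:**
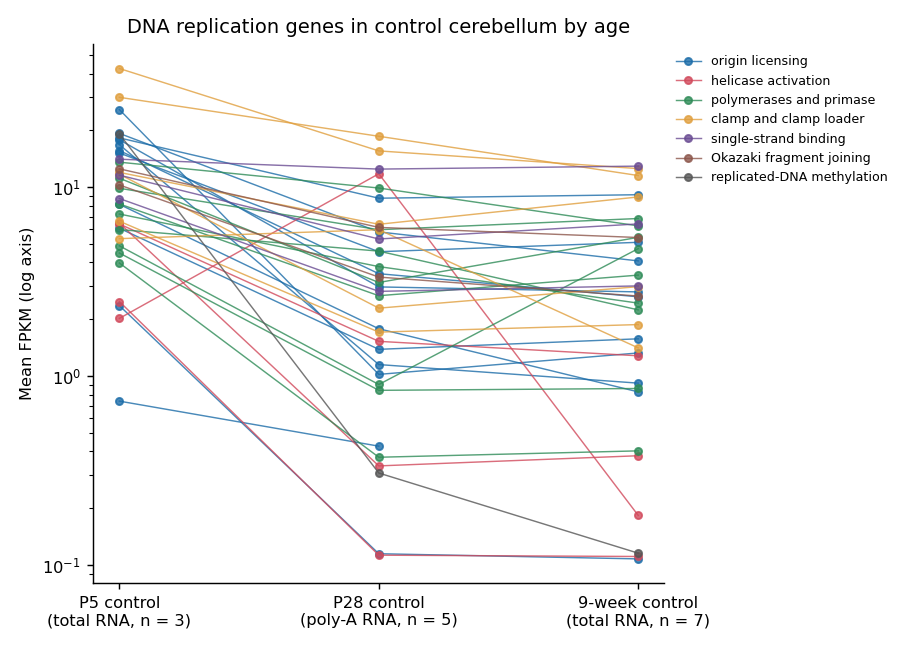
Mean FPKM of each replication gene in control cerebellum at P5, P28 and 9 weeks (log axis, 1 line per gene, coloured by role, no line to 9 weeks for Orc1). The median over members was 10.1, 3.05 and 2.66 FPKM, and the one line that climbs steeply to P28 is Gins2.

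Levels in a library are given from here on as log2 CPM, the log2 of counts scaled to library size. The libraries were first checked by the deleted genes. Depth, as recovered from the tables, was 24 to 89.4 M reads at P28 and is unknown at 9 weeks. At P5 it was 48 to 94.8 M reads, save for Rnaseh2b/p53 3, which had 709.2 M. Rnaseh2b fell in each group labelled with its deletion against the control of its age, by 1.02 on the log2 scale at 9 weeks (adjusted p = 3.1e-05, limma) and with adjusted p-values of at most 0.000402 at the other ages. Its means were 0.90 in Rnaseh2b/Atm, 1.12 in Rnaseh2b and 2.84 log2 CPM in control libraries at P28, and 1.91 in Rnaseh2b/Atm, 2.20 in Rnaseh2b/p53, 2.01 in Rnaseh2b and 4.27 in control libraries at P5. Trp53 at P5 averaged 2.02 log2 CPM in Rnaseh2b/p53, 1.64 in p53 and 3.71 in control libraries. The Atm transcript at P28 averaged 4.05 in libraries labelled Rnaseh2b/Atm, 4.79 in those labelled Atm and 4.83 log2 CPM in control, and at P5 5.54, 5.58 and 5.87, and the difference between the libraries labelled Atm and control did not pass the test at either age (adjusted p = 0.734 at P28 and 0.764 at P5, limma). The files do not show which part of Atm was deleted. All 7 granule neuron and all 6 Purkinje cell markers passed the filter on low values in every table. That filter asks for 1 CPM in as many libraries as the smallest group has, so it cannot check the dissection. At P5, libraries Atm 1 and control 2 stood apart from the rest, with a root mean square distance from the median over libraries of 0.705 and 0.502 log2 over 15229 genes, against 0.226 to 0.439 in the other 18. Their granule neuron markers lay on average 2.39 and 0.87 log2 below the control mean. P5 results are therefore given with and without this pair, as medians over members or counts of calls.

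At P28, more replication genes fell than rose in the double mutant. Of 34 members tested, 17 fell and 6 rose in Rnaseh2b/Atm against control. Over all 16508 genes tested, 63.6% were called, 32.1% lower and 31.5% higher, so the share of members called in either direction was near that of all genes and only the split between directions departed from it. The median difference over members was -0.23 log2 CPM, against -0.02 over all genes. Averaged over members, the 5 Rnaseh2b/Atm libraries lay between -0.25 and -0.21 relative to the control mean, against -0.03 to 0.02 in the control libraries. The groups did not overlap in 13 of the 34 in the lower direction and in 4 of the 34 in the higher one, against 22.2% and 23.5% of all genes. In these bulk samples, fewer cells of a type and less RNA per cell cannot be told apart.

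**Figure D2:**
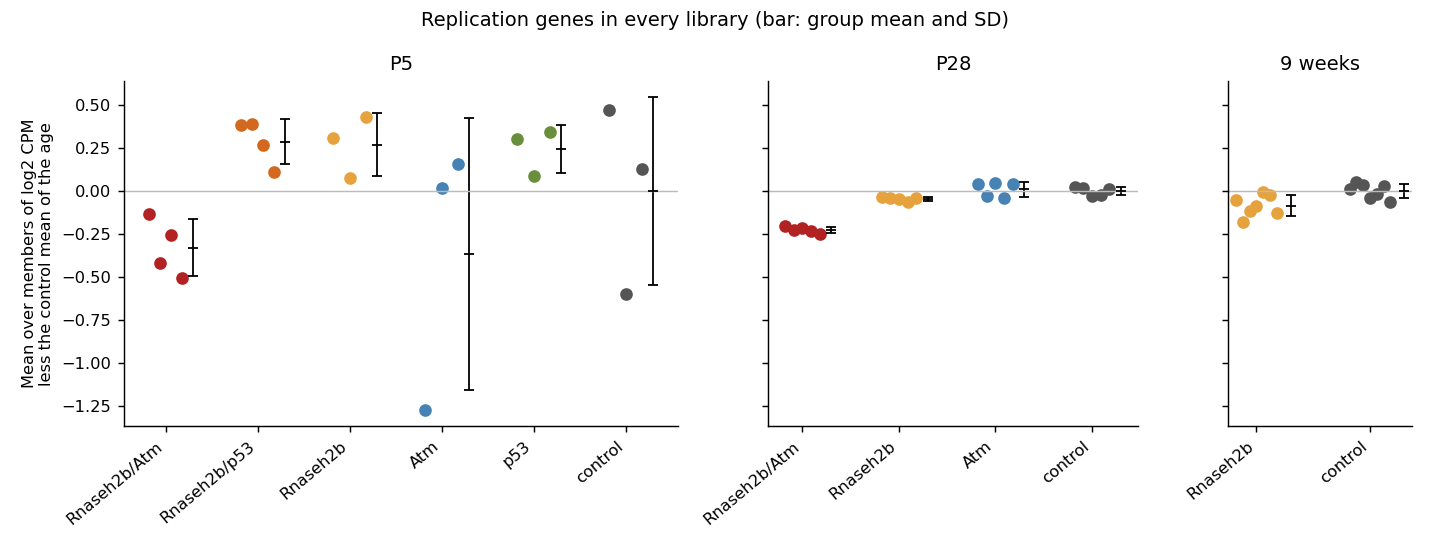
Mean over replication genes of log2 CPM less the control mean of that age, for every library (points), with group mean and SD (bars). The 5 P28 Rnaseh2b/Atm libraries lie between -0.25 and -0.21, below all other P28 libraries, while at P5 Atm 1 lies at -1.28 and control 2 at -0.60.

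Counts by role, here and below, stand beside 32.1% of all genes lower and 31.5% higher in the same comparison. Of the origin licensing genes, 6 fell and 2 rose among 10 tested. Mcm5, a subunit of the replicative helicase, had 2.44, 2.12, 2.16, 2.34 and 2.30 log2 CPM in Rnaseh2b/Atm libraries, against 3.40, 3.23, 3.33, 3.41 and 3.56 in controls. The groups were apart, with no library between them, and Mcm5 fell by 1.12 ± 0.085 on the log2 scale (SE of the fit, adjusted p = 2.22e-09, limma with Benjamini-Hochberg adjustment, as for all adjusted p-values here). Mcm2, another subunit, had 2.73, 2.44, 2.16, 2.72 and 2.29 log2 CPM in Rnaseh2b/Atm, against 3.55, 3.39, 3.52, 3.71 and 3.65 in control. It fell by 1.10 ± 0.14 (adjusted p = 1.99e-06). Mcm7 had 4.32, 4.34, 4.34, 4.39 and 4.24 log2 CPM in Rnaseh2b/Atm, against 4.73, 4.79, 4.47, 4.69 and 4.78 in control, with the highest Rnaseh2b/Atm library just under the lowest control. It fell by 0.37 ± 0.055 (adjusted p = 1.12e-05). Cdt1, the loading factor, fell by 0.77, Mcm3 fell by 0.29 and Mcm4 fell by 0.17. Gmnn, the inhibitor of Cdt1, moved the other way, with 1.54 to 1.72 log2 CPM in Rnaseh2b/Atm and 0.86 to 1.15 in control, and rose by 0.59 ± 0.12 (adjusted p = 0.000224). Mcm6, also a helicase subunit, was higher, with 2.43 to 2.90 log2 CPM in Rnaseh2b/Atm against 2.05 to 2.38 in control, and rose by 0.51 ± 0.12 (adjusted p = 0.000853). Orc1 and Orc6, members of the origin recognition complex, did not pass the test, with differences of -0.26 and -0.15.

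Of the helicase activators, Cdc45 fell and Mcm10 rose among 3 tested. Cdc45 had 1.24, 1.30, 1.15, 1.27 and 1.25 log2 CPM in Rnaseh2b/Atm, against 1.62, 1.84, 1.88, 1.77 and 1.86 in control, and fell by 0.55 ± 0.074 (adjusted p = 2.78e-06). Its Rnaseh2b/Atm libraries lay close together and clear of the controls. Mcm10, which helps to start the helicase, had 0.10 to 0.87 log2 CPM in Rnaseh2b/Atm, against -0.86 to 0.09 in control, and rose by 0.80 ± 0.22 (adjusted p = 0.00398), at a level near the limit of 1 CPM for testing. Gins2 had a difference of -0.02, and Gins1 was under that limit.

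Of the 9 polymerase and primase genes, 6 fell and none rose, where 32.1% of all genes fell and 31.5% rose. The share called in either direction was near the 63.6% of all genes. Pole2, a subunit of polymerase epsilon, the main leading-strand enzyme, had -0.73, -0.32, -0.87, -0.31 and -0.92 log2 CPM in Rnaseh2b/Atm, against 0.41, 0.67, 0.33, 0.47 and 0.71 in control. The groups were apart, and it fell by 1.15 ± 0.15 (adjusted p = 2.25e-06). Every Rnaseh2b/Atm library was under the limit of 1 CPM for testing, which Pole2 reached in 15 of the 20 P28 libraries. Pold1, the catalytic subunit of polymerase delta, fell by 0.96 ± 0.19 (adjusted p = 0.000232), and Pole, that of polymerase epsilon, fell by 0.66 ± 0.14 (adjusted p = 0.000518). Pola2 and Pola1 of polymerase alpha fell by 0.31 and by 0.30, and the primase subunit Prim1 fell by 0.24. Pold2, Pold3 and Prim2 did not pass, with differences of -0.22, -0.03 and 0.07.

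Among the clamp and its loader, 3 fell and 2 rose of 6. Pcna, the sliding clamp, had 4.73, 4.73, 4.59, 4.66 and 4.87 log2 CPM in Rnaseh2b/Atm, against 5.35, 5.20, 5.12, 5.26 and 5.26 in control. Every Rnaseh2b/Atm library was under every control, and Pcna fell by 0.52 ± 0.091 (adjusted p = 5.79e-05). Of the loader subunits, Rfc3 fell by 0.42 and Rfc2 fell by 0.18, Rfc4 did not pass with a difference of -0.30, and Rfc1 and Rfc5 rose by 0.13 each. The groups overlapped for both. Rfc1 lost its call under 7 and Rfc5 under 8 of 18 alternatives, both of them with libraries centred on their median. Of the single-strand binding proteins, Rpa1 rose by 0.25 ± 0.058 (adjusted p = 0.000816), and Rpa2 and Rpa3 did not pass, with differences of 0.12 and -0.14. Fen1, the nuclease that trims Okazaki fragments, fell by 0.27 ± 0.069 (adjusted p = 0.00193). Lig1, which joins the fragments, and Uhrf1 did not pass, with differences of 0.12 and 0.03. By exon annotation, reads of Cdc45, Fen1, Mcm7, Pole, Pole2, Rfc2, Rfc5 and Rpa1 could be shared with an overlapping gene. Of the 14 fallen members with a promoter in RefSeq, 8 held an E2F motif, as did 1 of the 5 that rose and 4 of the 9 that were tested and not called. Over all 29 members with a promoter 14 held one (48.3%), and whether the share differed by call was not tested. Mcm3 and Prim1 lost their call under several omissions of 1 library, Mcm3 without Rnaseh2b/Atm 2 or 4 or control 1, 3 or 5, and Prim1 without Rnaseh2b/Atm 1, 3 or 5 or control 1 or 2.

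**Figure D3:**
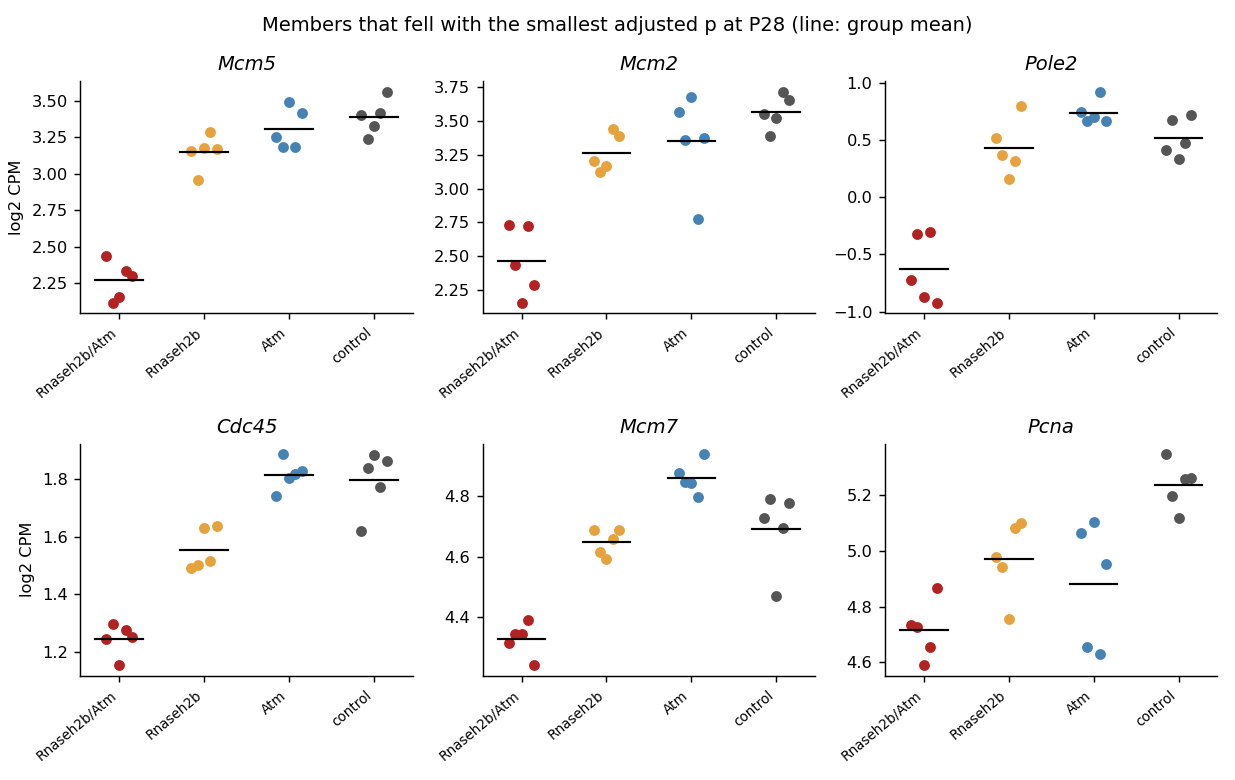
Log2 CPM of the 6 members that fell with the smallest adjusted p in P28 Rnaseh2b/Atm, in every P28 library (points) with group means (lines). In each panel the Rnaseh2b/Atm libraries lie below every control library, and in Pcna the Atm libraries reach down into them.

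**Figure D4:**
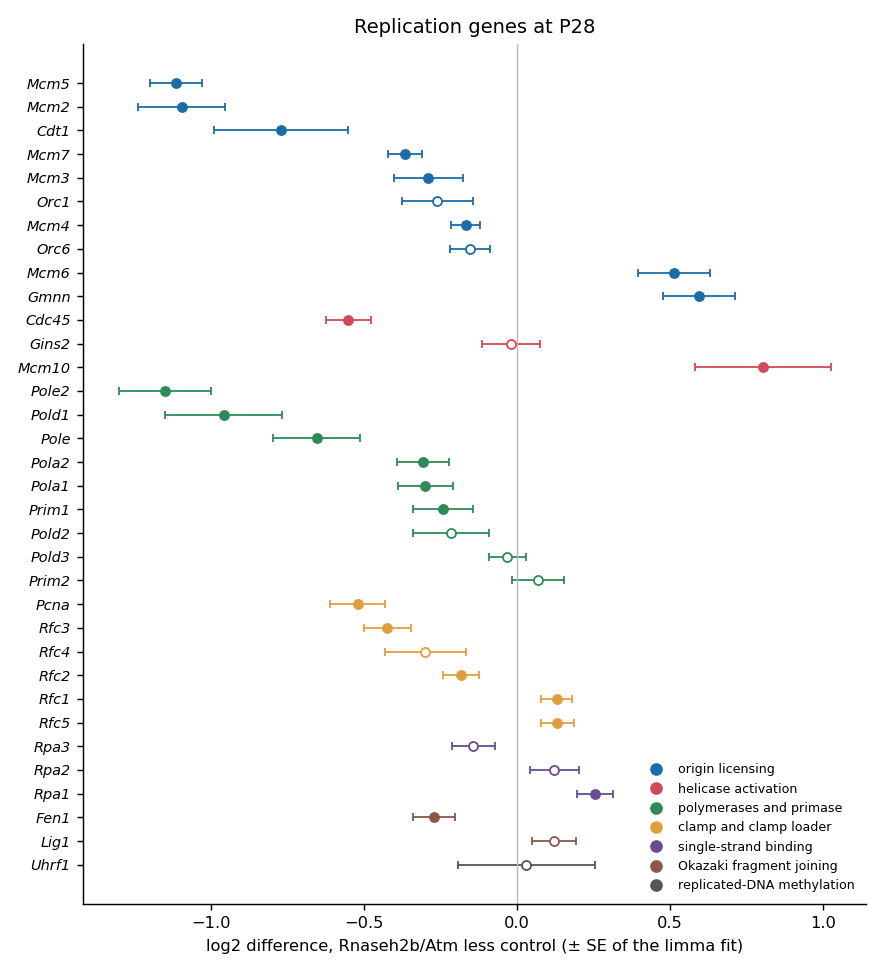
Difference in log2 CPM between Rnaseh2b/Atm and control at P28 for the 34 members tested, with the SE of the fit (bars), grouped and coloured by role, filled where the adjusted p was below 0.05. Of the filled points, 17 lie left of 0 and 6 right of it, led by Mcm10 on the right and by Pole2, Mcm5 and Mcm2 on the left.

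Few members passed the test in the single mutants at P28. In Rnaseh2b against control 0 of 34 members were called by limma (5.13% of all genes), with 6 at an unadjusted p under 0.05 and 0 with voom on the recovered reads. The 3 most expressed members had 6.11 to 6.32 (Rpa1), 5.48 to 5.60 (Gins2) and 5.18 to 5.40 log2 CPM (Rfc1) in Rnaseh2b, against 6.05 to 6.21, 5.48 to 5.72 and 5.20 to 5.36 in control. The groups overlapped in all 3. The smallest adjusted p was that of Cdc45, at 0.0582, with 1.55 ± 0.07 log2 CPM in Rnaseh2b and 1.80 ± 0.11 in control (SD, n = 5 each). In Atm against control 1 of 34 was called (1.88% of all genes). This was Pcna, with 5.07, 4.66, 5.10, 4.63 and 4.95 log2 CPM in Atm and the control values given above, and it fell by 0.35 ± 0.091 (adjusted p = 0.0494). That call was lost without Atm 2, 4 or 5 and without control 1, 3, 4 or 5, each left out alone.

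The double mutant was also set against each single mutant. Against Atm, 16 members fell and 5 rose of 34 (61% of all genes called, 31% lower and 30% higher), with a median of -0.20. Against Rnaseh2b, 16 fell and 5 rose (49.6% of all genes called, 24.6% lower and 25% higher), with a median of -0.18. These comparisons and the one with control share the same 5 Rnaseh2b/Atm libraries. Mcm5 averaged 2.27 log2 CPM in Rnaseh2b/Atm, 3.15 in Rnaseh2b, 3.30 in Atm and 3.39 in control, and Pole2 averaged -0.63, 0.43, 0.74 and 0.52 in the same groups. The single mutants were not tested against each other.

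Whether the Rnaseh2b difference was another one on the Atm background was tested as the difference between Rnaseh2b/Atm less Atm and Rnaseh2b less control. It was negative and called for 11 members and positive and called for 3 of 34 (37.7% of all genes called, 19% negative and 18.7% positive). The share of members called was near that of all genes, and only the split between directions departed from it. Mcm5 differed by -0.79 ± 0.12 (adjusted p = 5.71e-05), Mcm7 by -0.49 ± 0.078 (adjusted p = 8.84e-05) and Pole2 by -1.28 ± 0.21 (adjusted p = 0.000143). For these 3 genes the double mutant lay below the level that both single differences would add up to. Gmnn, Rfc5 and Lig1 differed by 0.50, 0.28 and 0.28 in the other direction. Without Rnaseh2b/Atm 2 and 4 the difference of effects for Gmnn had an adjusted p of 0.0509.

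Markers of cell types moved in the same P28 libraries, where 63.6% of all genes were called against control, 32.1% lower and 31.5% higher. All 7 granule neuron markers fell in Rnaseh2b/Atm, where their summed level was 1278 to 2599 CPM, against 5176 to 5904 in control. Granule progenitor markers gave 281 to 329 CPM in Rnaseh2b/Atm, against 370 to 444 in control, and 5 fell and 1 rose of 8 tested. Only these 8 of the 10 listed had values at P28, and whether they mark progenitors at that age was not tested. All 7 microglial markers rose, with a sum of 123 to 162 CPM against 79.3 to 85.8. All 5 myelin markers fell, and libraries Rnaseh2b/Atm 2 and 4 were the lowest in them. Of 5 midbrain markers tested 4 rose, with a sum of 45.3 to 73.2 CPM against 14.5 to 21.4. In control, 3 midbrain markers and 1 microglial marker averaged under 1 CPM, against 0 of either list in Rnaseh2b/Atm. Such markers could pass the filter through the libraries where they were high, so a count of their rises is no test. Of the other lists, 4 of 6 Purkinje cell and 3 of 4 endothelial markers rose, 3 of 6 Bergmann glia and astrocyte markers rose and 1 fell, and 1 of 5 oligodendrocyte progenitor markers rose. Of 5 choroid plexus markers 0 passed by limma, with 1 at an unadjusted p under 0.05. The part of these changes in the member differences was not tested. Without libraries 2 and 4, an omission chosen after seeing the data, 21 members fell and 5 rose against control, where 60.4% of all genes were called, 30.3% lower and 30.1% higher.

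Other cell cycle genes at P28 are given beside the 32.1% of all genes that fell and the 31.5% that rose in the same comparison. Of 26 further replication genes tested in Rnaseh2b/Atm against control, 12 fell and 4 rose. Recql4, a helicase needed to start replication, fell by 1.21 ± 0.094 (adjusted p = 2.71e-09), the chromatin assembly subunit Chaf1a fell by 0.84, the fork protein Timeless fell by 0.77 and Mcm9 fell by 0.46. Of 22 genes of E2F and G1 control, 8 fell and 2 rose. The repressor E2f7 fell by 2.07 ± 0.14 (adjusted p = 4.43e-10) and E2f4 fell by 0.70, while Cdkn1a, the cyclin-dependent kinase inhibitor p21, rose by 1.61 ± 0.14 (adjusted p = 1.61e-08) and the cyclin Ccnd2 rose by 1.77. Of 15 mitotic genes, 5 rose and 1 fell. Ube2c, which works with the anaphase-promoting complex, rose by 4.87 ± 0.24 (adjusted p = 1.07e-11), Tpx2 rose by 0.53 and Plk1 rose by 0.61, while Kif11 rose by 0.52. The median difference was -0.23 over the further replication genes, -0.12 over the E2F and G1 genes and 0.26 over the mitotic genes. The mitotic share that rose, and the share of further replication genes called in either direction, were thus near those of all genes.

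At P5, the age with the highest median level of the members in controls, 0 of 36 were called by limma in any of the 11 comparisons, and 0 by voom on the recovered reads. The smallest adjusted p in any of them was that of Lig1 in Rnaseh2b/Atm against Rnaseh2b, at 0.0733. In that comparison, which has neither library that stood apart in its groups but takes its spread from all P5 libraries, all 36 members had lower means in Rnaseh2b/Atm, 19 at an unadjusted p under 0.05, and in all but Pold2 the 4 Rnaseh2b/Atm libraries lay below the 3 Rnaseh2b libraries (35 of 36, against 18% of all genes). Of all genes, 2.04% were called. The median difference was -0.59 log2 CPM over members and 0.01 over all genes.

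The 3 members with the highest level at P5 show the pattern. Mcm6 had 6.18, 5.73, 5.73 and 5.55 log2 CPM in Rnaseh2b/Atm, 6.32, 6.78, 6.31 and 6.34 in Rnaseh2b/p53, 6.62, 6.42 and 6.81 in Rnaseh2b, 4.59, 6.16 and 6.42 in Atm, 6.52, 6.27 and 6.51 in p53, and 6.87, 5.71 and 6.43 in control. Rnaseh2b/Atm was below Rnaseh2b without overlap, while Atm 1 lay below all Rnaseh2b/Atm libraries and control 2 among them. Pcna had 5.99, 5.77, 5.73 and 5.47 log2 CPM in Rnaseh2b/Atm, 6.28, 6.31, 6.23 and 6.11 in Rnaseh2b/p53, 6.56, 6.15 and 6.70 in Rnaseh2b, 4.91, 6.26 and 6.34 in Atm, 6.52, 6.17 and 6.40 in p53, and 6.73, 5.44 and 6.36 in control. Mcm7 had 5.62, 5.28, 5.49 and 5.05 log2 CPM in Rnaseh2b/Atm, 6.49, 6.51, 6.33 and 6.10 in Rnaseh2b/p53, 6.29, 5.92 and 6.40 in Rnaseh2b, 4.01, 5.93 and 6.22 in Atm, 6.43, 6.06 and 6.45 in p53, and 6.47, 5.06 and 6.17 in control. In all 3 genes every Rnaseh2b/p53 library lay above every Rnaseh2b/Atm library, a pair of groups that was not tested. Atm 1 was the lowest library of all in each. Uhrf1, chosen here after its values were seen, had the largest difference between Rnaseh2b/Atm and Rnaseh2b, with 4.93 to 5.53 log2 CPM against 5.93 to 6.46 (difference -1.05, adjusted p = 0.222).

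**Figure D5:**
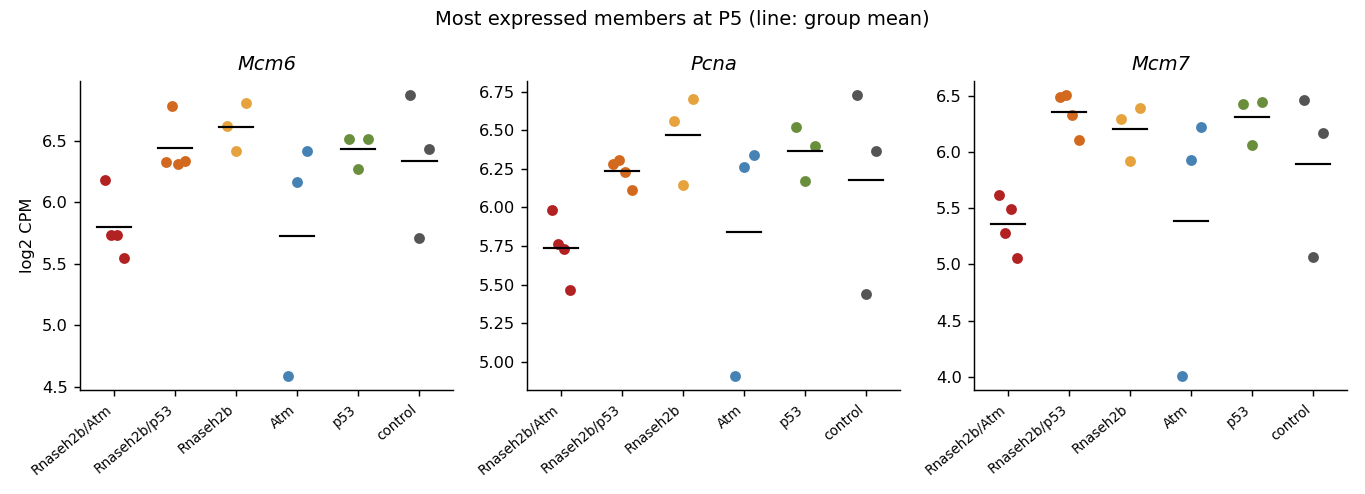
Log2 CPM of Mcm6, Pcna and Mcm7 in every P5 library (points) with group means (lines). The 4 Rnaseh2b/Atm libraries lie below the 3 Rnaseh2b libraries in each panel, and the lowest point of each panel is Atm 1.

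Without Atm 1 and control 2, the P5 double mutant comparisons changed. Against Rnaseh2b, 35 members fell (14.2% of all genes lower, 23.1% called), against control 32 fell (22.3% lower, 41.4% called) and against Atm 22 fell (12.7% lower, 22.7% called), with 0 rising in each. The medians over members were -0.59, -0.69 and -0.43. Against control, where 2 control libraries were left, Prim1 fell by 0.71 ± 0.11 (adjusted p = 0.000303), Pola1 fell by 0.73 ± 0.13 (adjusted p = 0.000698) and Lig1 fell by 0.42 ± 0.074 (adjusted p = 0.000743). With control 2 alone left out, 8 members fell against control (13.7% of all genes lower, 26.1% called), and with Atm 1 alone left out 2 fell against Atm (5.29% lower, 12.1% called). With only the libraries of those groups in the fit, 29 members fell against Rnaseh2b (8.93% of all genes lower, 13.4% called). The P5 calls on the double mutant thus depend on these 2 libraries and on which groups share the fit.

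In the other comparisons the medians moved with the same pair. Rnaseh2b against control had a median over members of 0.29 with all libraries (0.682% of all genes called) and -0.02 without the pair. For p53 against control it was 0.25 (0.182% called) and -0.05 without the pair, and for Rnaseh2b/p53 against control 0.30 (0.429%) and 0.01. Without control 2 these 3 medians were thus near 0, and no direction is given for them. Atm against control had a median of -0.34 with all libraries (0%), 0.11 without Atm 1 alone and -0.22 without the pair. These comparisons share the 3 control libraries. With all libraries the median was -0.32 in Rnaseh2b/Atm against control (9.86% of all genes called) and 0.03 in Rnaseh2b/Atm against Atm (9.54%), where it turned negative without Atm 1. In Rnaseh2b/p53 it was 0.05 against p53 (0.188% called) and 0.03 against Rnaseh2b (3.03%), groups that do not hold the pair. None of these except Rnaseh2b/Atm against control and against Atm gained a call without Atm 1 and control 2. The difference of the Rnaseh2b effect on the Atm background had a median of -0.26 with all libraries (0% of all genes called), -0.37 without the pair and 0.06 without control 2 alone. On the p53 background it was -0.27 (0.00649% called), and 0.07 without the pair. Members at an unadjusted p under 0.05 numbered 4 in Rnaseh2b/Atm against control, 2 against Atm, 1 in Rnaseh2b/p53 against control and 1 against Rnaseh2b, and 0 in the other 6 comparisons besides that with Rnaseh2b given above.

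Cell type markers at P5 also differed, in both directions. The summed level of the 10 granule progenitor markers was 174 to 226 CPM in Rnaseh2b/Atm, 257 to 329 in Rnaseh2b, 111 to 315 in Atm and 164 to 335 in control, with the low ends of Atm and control in Atm 1 and control 2. In Rnaseh2b/Atm the progenitor marker mean was 0.40 to 0.94 log2 below the control mean, and the mitotic mean 0.16 to 0.68 below. In Rnaseh2b the progenitor mean was 0.03 to 0.40 above. That control mean includes control 2, at -0.78 for progenitor and -0.91 for mitotic markers. Controls 1 and 3 lay at 0.48 and 0.30 for progenitor and at 0.68 and 0.23 for mitotic markers. No direction is therefore given for the progenitor mean in Rnaseh2b. The 6 Purkinje cell markers summed to 1243 to 1974 CPM in Rnaseh2b/Atm, 985 to 1209 in Rnaseh2b and 379 to 999 in control. Microglial markers summed to 124 to 141 CPM in Rnaseh2b/Atm, 93.2 to 105 in Rnaseh2b and 82.7 to 101 in control. The 7 granule neuron markers summed to 118 to 211 CPM in Rnaseh2b/Atm, 282 to 339 in Rnaseh2b and 151 to 452 in control. Choroid plexus markers summed to 1297 to 2164 CPM in Rnaseh2b/Atm, 999 to 1423 in Rnaseh2b and 83.5 to 1320 in control, and myelin markers to 75.2 to 922 in Rnaseh2b/Atm, 608 to 1717 in Rnaseh2b and 180 to 853 in control. In Rnaseh2b/Atm against Rnaseh2b, 3 of 7 microglial and 2 of 6 Purkinje cell markers rose, while 0 of 10 granule progenitor, 0 of 7 granule neuron, 0 of 5 choroid plexus and 0 of 5 myelin markers passed by limma, with 4, 0, 0 and 3 at an unadjusted p under 0.05. Of all genes, 2.04% were called in that comparison. The part of these markers in the member differences was not tested. Of other cell cycle genes, 0 of 30 further replication genes and 0 of 20 mitotic genes were called by limma in Rnaseh2b/Atm against Rnaseh2b, with 14 and 3 at an unadjusted p under 0.05. Against control the counts were again 0, with 6 and 0 at an unadjusted p under 0.05, and Cdkn1a rose by 0.84 (adjusted p = 0.00396).

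At 9 weeks, 3 of 30 members tested fell and 1 rose in Rnaseh2b against control, a smaller share than the 20.2% of all genes called (9.57% lower and 10.6% higher). Cdc6, Mcm10, Gins1, Gins2 and Uhrf1 were under the limit of 1 CPM. Pola1, the catalytic subunit of polymerase alpha, had a lowest, median and highest value of 4.78, 5.11 and 5.15 log2 CPM in Rnaseh2b and of 5.15, 5.39 and 5.55 in control. The groups did not overlap (as in 1.92% of all genes in this direction), and Pola1 fell by 0.32 ± 0.069 (adjusted p = 0.00584). Pola2, its partner subunit, had 2.43, 2.56 and 2.61 in Rnaseh2b and 2.57, 2.75 and 2.97 in control, with a small overlap, and fell by 0.23 ± 0.069 (adjusted p = 0.0297). Mcm2 had 2.61, 2.85 and 3.15 in Rnaseh2b and 2.97, 3.13 and 3.30 in control, and fell by 0.25 ± 0.084 (adjusted p = 0.0457), a call that was lost under 17 of 23 alternatives, among them leaving out any of Rnaseh2b 1, 2, 3, 4 or 6 or control 1, 2, 3, 4 or 6. That of Pola2 was lost without Rnaseh2b 1 or 6 or control 3, 4 or 6. Mcm3 was the member that rose, with 1.60, 1.75 and 2.09 in Rnaseh2b and 1.31, 1.43 and 1.71 in control, by 0.35 ± 0.097 (adjusted p = 0.0193). Over the members the median difference was -0.10, against 0.00 over all genes.

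The 9-week libraries carry codes of 2 separate ranges in their labels, and the deposited values had equal means in both sets for every gene. In the set of 6 libraries (codes 11 to 16) the difference was -0.43 for Pola1, -0.17 for Pola2, -0.44 for Mcm2 and 0.37 for Mcm3, with 1 member called. In the set of 8 (codes 50 to 58) it was -0.23, -0.27, -0.10 and 0.34, with 0 called by limma. The counts of other genes and markers that follow stand beside 9.57% of all genes lower and 10.6% higher at 9 weeks. Of 24 further replication genes, 6 fell and 0 rose. They included Wdhd1, which links the helicase to polymerase alpha and fell by 0.32 ± 0.064 (adjusted p = 0.00419), the kinase Cdc7, which fires origins and fell by 0.24, Topbp1, which fell by 0.19, and Orc4, which fell by 0.25. Of 20 genes of E2F and G1 control, Ccnd1 rose by 0.35, Cdkn1a fell by 0.44 and E2f6 fell by 0.16. Among 10 mitotic genes 0 were called by limma, with 2 at an unadjusted p under 0.05. Granule neuron markers summed to 1439 to 2301 CPM in Rnaseh2b, against 2446 to 3096 in control, and 4 of 7 fell. Microglial markers summed to 89.4 to 124 CPM in Rnaseh2b, against 71.0 to 84.2 in control, and 5 of 7 rose. Myelin markers summed to 2876 to 4891 CPM in Rnaseh2b, against 2384 to 3245 in control, and 4 of 5 rose, as did 3 of 5 oligodendrocyte progenitor, 3 of 6 Bergmann glia and astrocyte, 2 of 6 Purkinje cell and 2 of 3 midbrain markers. The midbrain marker Pou4f2 averaged -0.19 log2 CPM in control and had at least 0.34 in every Rnaseh2b library. It could thus pass the filter on the Rnaseh2b libraries alone. Of the 10 granule progenitor markers listed, Atoh1 and Nhlh1 had no values at 9 weeks, and 1 of the 8 tested fell. Their part in the member differences was not tested.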

How the data were processed

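Whole cerebellum RNA was extracted with TRIzol and libraries were made with the TruSeq Stranded Total RNA kit, per the labels' protocols, while the labels of the P28 samples name poly-A enriched RNA and those of the other ages total RNA. Trim Galore, STAR, BWA, HTSeq and limma and the build mm9 are named, per the submitters' processing notes, and the versions, the role of each and the strand setting are not given in the sources used here. The authors deposited log2 CPM and FPKM per gene and library for each age. At P28 and P5 the deposited log2 CPM values gave back whole reads within 0.01 of a read for at least 99.9844% of values. At 9 weeks the deposited values had equal means in both ranges of library codes (6 and 8 libraries) for every gene. The deposited 9-week FPKM table had been shifted too and held 30973 values below 0, so it was treated as a score. At P5, 3 rows of the read counter's own categories, with 19.66% to 31.75% of CPM, were dropped.

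For each age, limma 3.58.1 (R 4.3.3) with a mean-variance trend was fitted to log2 CPM over all groups, for genes with at least 1 CPM in as many libraries as the smallest group has (9 weeks: 15057 genes, P28: 16508, P5: 15400). P-values were adjusted by Benjamini-Hochberg over all these genes, with calls made below 0.05. An error of a difference is the SE of that fit, and that of a group mean is the SD. The fit was tested on simulated data. Alternatives were no filter, FPKM with a pseudocount of 1 or 0.1, libraries centred on their median, voom on the recovered reads, only the groups compared, a replicate block, the code range at 9 weeks, and each library left out. P28 members passed the filter in 34 of 36 cases (Cdc6 and Gins1 did not), P5 members in 36 and 9-week members in 30 of 35. Exon overlaps came from GENCODE vM21, and promoters from RefSeq (GRCm38.p6), where 29 of 36 members matched by symbol. That build is not the one the reads were aligned to, so no position was used with the files. Figures were drawn with matplotlib 3.10.9 (Python 3.11.15).

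The members and all other lists were chosen with earlier results of these data known. Values per library are given for the called members with the smallest adjusted p (at most 6 per comparison), or for the 3 members with the highest level where fewer than 3 were called, and up to 4 called genes are named from each other list. Some further members are named for their direction, after their values were seen.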

Additional observations from a re-analysis of the deposited data

Results flagged for a closer look

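For 14 of 34 members tested, against 37.7% of all genes, the Rnaseh2b difference at P28 was another one on the Atm background, by the limma test of the difference of effects (Rnaseh2b/Atm less Atm, less Rnaseh2b less control). The share of members called was thus near that of all genes, and only the split between directions departed from it. The difference of effects was -1.28 for Pole2, -0.80 for Pole, -0.46 for Pola2 and -0.50 for Prim1 among the polymerases and primase. Among the licensing genes it was -0.79 for Mcm5, -0.58 for Mcm2, -0.50 for Orc1, -0.49 for Mcm7, -0.43 for Mcm3 and 0.50 for Gmnn. It was -0.33 for Cdc45, -0.50 for Rfc4, 0.28 for Rfc5 and 0.28 for Lig1. The calls of Rfc4, Mcm3, Lig1 and Mcm2 were lost under 13, 12, 10 and 7 of 28 alternatives.

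In 7 of 124 groups of libraries looked at, 1 library lay far from the others of its group, and chance flags about 1 group in 20. Pole in Rnaseh2b/Atm 4 at P28 had 0.68 log2 CPM, with the next library at 1.19. Pold1 in the P28 Atm library 4 had 3.51, with the next at 4.51. Orc6 in Rnaseh2b/Atm 2 at P28 had 3.95, with the next at 3.68. In P28 Rnaseh2b, Pola1 had 2.79 in library 3 (next 2.97) and Rfc1 had 5.18 in library 4 (next 5.36). Rfc5 in the P28 Atm library 2 had 4.65 (next 4.75). At 9 weeks, Mcm3 in control 6 had 1.71 log2 CPM (next 1.48), which lies inside the Rnaseh2b range of 1.60 to 2.09.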

How the results depend on the processing

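No called difference of a single member changed its direction under the alternatives run, but medians over members did, in comparisons with at most 1 member called with all libraries. At P5, without control 2 and Atm 1 they were -0.02 for Rnaseh2b and -0.05 for p53 against control, -0.43 for Rnaseh2b/Atm against Atm and 0.07 for the difference of effects on the p53 background, against 0.29, 0.25, 0.03 and -0.27 with all libraries. Omitting 1 library gave the median the other sign in 9 of 18 comparisons. At P28, members called numbered 20 to 26 in Rnaseh2b/Atm against control (23 as reported), 20 to 24 against Atm (21), 15 to 22 against Rnaseh2b (21) and 11 to 15 in the difference of effects (14), over all alternatives. In Rnaseh2b against control, 0 as reported, 1 was called on log2 of FPKM plus 1, on log2 of FPKM plus 0.1 and with only the groups compared, and 0 to 2 with a library left out. In Atm against control, 1 as reported, 0 were called with no filter, on log2 of FPKM plus 1 or plus 0.1, with only the groups compared and with the replicate block, and 0 to 2 with a library left out. At 9 weeks, 4 as reported, 1 was called with the replicate block, 1 with library codes 11 to 16 alone, 0 with codes 50 to 58 alone, and 2 to 5 with a library left out. At P5, with 0 as reported throughout, Rnaseh2b/Atm against Rnaseh2b gave 29 with only the groups compared. Without control 2 and Atm 1 the double mutant gave 35 against Rnaseh2b, 32 against control and 22 against Atm. With 1 library left out it gave 0 to 8 against control and 0 to 2 against Atm, and Rnaseh2b/p53 against Rnaseh2b gave 0 to 1. The cause of these changes was not tested, beyond the fewer libraries of the omissions and of the single code ranges. Same-numbered libraries deviated together with correlations of -0.545 to 0.0861 at 9 weeks, -0.587 to 0.45 at P28 and -0.581 to 0.553 at P5, so the numbers were not taken to pair libraries, and the replicate block moved no other count of members by over 1.5 times. Low levels limit Mcm10, Pole2 and Uhrf1 at P28.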
